A study of Mus musculus with 10 samples.

Results

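Tubulins and the enzymes that modify them were examined in germ cells of GRTH knock-in (KI) and wild-type (WT) mice. The members were all genes of the deposited table whose symbols begin with Tuba, Tubb, Tubg, Tubd, Tube, Ttll or Agbl. This gave 39 genes of 15507 listed. They were 8 alpha-tubulins, 5 beta-tubulins, 1 gamma-tubulin, 5 gamma-tubulin complex proteins, 2 delta- and epsilon-tubulins, 13 tubulin tyrosine ligase-like enzymes (Ttll) and 5 cytosolic carboxypeptidases (Agbl). Testes of 5 WT and 5 homozygous KI mice aged 45 days were digested with collagenase and then trypsin to free the cells, and each mouse gave 1 library. The KI allele is a human GRTH gene with a missense change from arginine to histidine, and WT mice have the mouse gene, Ddx25, an RNA helicase of testis. The preparations held spermatogonia, spermatocytes and spermatids together. A strain was not given in the sources used here.

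Microtubules are built from pairs of alpha- and beta-tubulin and are seeded by complexes of gamma-tubulin. In spermatids they form the axoneme of the tail and the manchette, a skirt of microtubules around the nucleus as it is shaped, and in meiotic cells they form the spindle. The tails of both tubulins carry added glutamate or glycine chains, which Ttll enzymes build, and enzymes of the Agbl family remove glutamates again. These chains are most abundant on long-lived microtubules such as those of cilia and sperm tails. Delta- and epsilon-tubulin belong to the centriole.

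The sequences on which these enzymes act are shown first for 4 alpha-tubulins, because alpha-tubulins differ most in the tail. Each line gives the last 60 coding bases before the stop codon, 5′ to 3′ on the coding strand, with the last codon in capitals (GRCm38, the same assembly as mm10, GENCODE vM21). Each lies within a single exon.
Tuba3a, chr6:125278361-125278420, minus strand: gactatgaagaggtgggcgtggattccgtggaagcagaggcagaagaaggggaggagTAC
Tuba3b, chr6:145621325-145621384, plus strand: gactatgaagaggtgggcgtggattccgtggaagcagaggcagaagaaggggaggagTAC
Tuba4a, chr1:75215625-75215684, minus strand: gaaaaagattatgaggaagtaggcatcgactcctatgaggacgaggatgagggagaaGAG
Tuba8, chr6:121226017-121226076, plus strand: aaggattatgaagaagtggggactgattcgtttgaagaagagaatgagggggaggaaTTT

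The last codon stood for tyrosine in Tuba3a and Tuba3b, for glutamate in Tuba4a and for phenylalanine in Tuba8. The terminal tyrosine is the residue that detyrosinating enzymes remove and tubulin tyrosine ligase restores. Within these 20 codons glutamate was encoded 8 times in each of the 4 genes. The ends of Tuba3a and Tuba3b were the same. Over the whole aligned coding sequence Tuba3a and Tuba3b differed at 41 of 1353 positions, and Tuba1c differed from Tuba1b at 28 of 1356 and from Tuba4a at 200 of 1350. Near-identical paralogs can exchange reads in the counting. Of all 150-base windows of the transcript (the read length), 54.7% in Tuba1a, 57.9% in Tuba1b and 46.7% in Tuba1c also occurred in another annotated gene. These were the other Tuba1 genes and genes with Gm names, among them Gm49450, whose exons overlap those of Tuba1a and Tuba1b. How the windows divide among them is not given. The share of windows found in another gene was 2.65% in Tuba3a and 2.21% in Tuba3b, and no window of Tuba4a or Ttll10 was shared. It was 27.9% in Tubb2a, 16.8% in Tubb4b, 42.9% in Ttll2 and 0.907% in Tubg1, and 0 in the other members.

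The unit is the authors' normalized count, a read count divided by a size factor of the library, and each library held between 12722086 and 16422347 reads on genes. A zero leaves up to 3 reads possible, a normalized count of 2.61 to 3.62, which covers counting error only. Ddx25, the targeted gene (chr9:35541848-35558470, minus strand), measured 7615, 7782, 5198, 11101 and 9458 normalized counts in WT libraries 1 to 5. In KI libraries 1 to 5 it measured 146, 194, 161, 2.88 and 1.84, far below WT in all 5, and libraries 4 and 5 of KI lay at or below the limit of 3 reads and libraries 1 to 3 did not. The samples are labelled as germ cells of testis, and markers of elongating spermatids were past both thresholds below WT in 11 of 11 genes. Their summed normalized count was 67382 to 101180 in KI and 293185 to 495993 in WT. Markers of round spermatids, spermatocytes, spermatogonia and Sertoli cells had 0 genes past both thresholds in either direction by limma (by adjusted p alone, 3 of 6 lower, 1 of 8 lower, 1 of 7 lower and 1 of 8 higher). The sums of round spermatid markers were 10784 to 15963 in KI and 16972 to 19587 in WT, with no overlap. Those of spermatocytes, spermatogonia and Sertoli cells overlapped between genotypes. Markers of Leydig cells were higher in 4 of 7 genes, with sums of 15729 to 27046 in KI against 10875 to 19503 in WT, those of macrophages in 4 of 8, with sums of 927 to 1332 against 654 to 878, those of endothelial cells in 2 of 5, and those of peritubular myoid cells in 2 of 4 tested. Insl3 of Leydig cells averaged 12289 normalized counts in KI and 6904 in WT. In such a mixture fewer cells of a type and less RNA per cell cannot be told apart.

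KI and WT were compared gene by gene with limma on log2(normalized count + 1), and fold changes below are KI against WT on this scale. A gene counted as changed at an adjusted p under 0.05 (Benjamini-Hochberg over 15389 genes) with a fold change of at least 1.5. All 39 members passed the filter on low counts. Of these, 3 fell past both thresholds (Tuba1c, Tuba4a and Ttll10) and 0 rose, where 8.22% of all genes tested fell and 6.13% rose (14.4% in either direction). Above WT, 4 members had an unadjusted p under 0.05 in limma, as had 2493 of all 15389 genes. In edgeR and DESeq2 also 0 members above WT were past both thresholds. With the adjusted p alone, 7 members were lower and 1 was higher (20.5%), against 13.3% lower and 9.65% higher among all genes (22.9% in either direction). With the library number as a block in the limma fit these counts became 11 lower and 4 higher. Shares of all genes by adjusted p alone are not given for the block fit, so that these 2 counts have no background. The same number of members, 3 lower and 0 higher, was past both thresholds with the block. Of all 15389 genes 1343 then fell and 1067 rose, against 1265 and 944 without the block. In 5 members every KI library lay below every WT library, and in 0 above, against 10.9% and 6.80% of all genes (17.7% in either direction). Against these shares of all genes, the counts do not set the members apart as a group. The median log2 fold change of the members was −0.03 and that of all genes 0.03. Of the members 25 were below 0 and 14 above, and of all 15389 genes 7140 were below 0 and 8249 above. These counts of signs carry no test. A scaling to library totals moved the median of all genes from 0.03 to 0.25 and that of the members to 0.20. The normalized counts of all genes tested added up to 12938387 to 14598419 in KI libraries and to 15455439 to 16734912 in WT libraries. On the scale of library totals 3 members were lower and 7 higher by adjusted p. Shares of all genes by adjusted p alone are not given on that scale either, so that these counts have no background. Past both thresholds 3 members were lower and 1 higher on the scale of library totals, where 789 of all 15389 genes fell and 2145 rose.

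**Figure D1:**
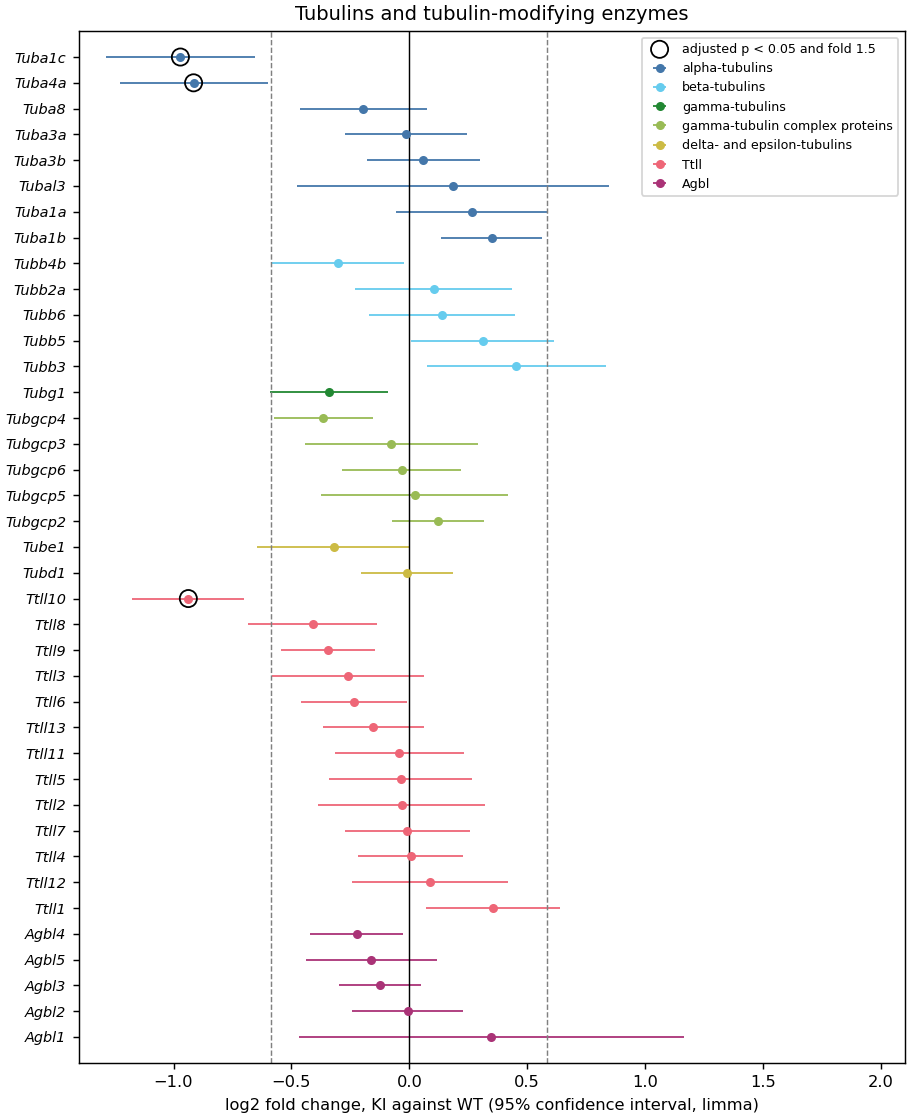
Log2 fold change of KI against WT for the 39 members on the horizontal axis, with 95% confidence intervals from limma, grouped and coloured by family. Dashed lines mark a fold change of 1.5 either way, and open circles mark Tuba1c, Tuba4a and Ttll10, the 3 members past both thresholds, which stand apart on the left near −0.97, −0.91 and −0.94.

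Among the alpha-tubulins, Tuba1c and Tuba4a fell to about the same extent. Tuba1c, a widely expressed alpha-tubulin (chr15:99029891-99038105, plus strand), measured 1470, 1626, 1976, 1026 and 1225 normalized counts in WT libraries 1 to 5. It measured 672, 814, 793, 728 and 648 in KI. The highest KI library lay below the lowest WT library, and WT libraries 4 and 5 were the lowest of their group. Its mean was 731 ± 72.8 in KI and 1464 ± 367 in WT (SD, n = 5), a log2 fold change of −0.97 (SE 0.15, adjusted p = 2.10e-04, limma). Within libraries 1 to 3 it was −1.15 and within libraries 4 and 5 it was −0.71.

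Tuba4a, whose gene encodes no terminal tyrosine (chr1:75214972-75219294, minus strand), measured 1428, 1680, 1890, 1114 and 1198 normalized counts in WT. It measured 734, 891, 769, 845 and 596 in KI. Again no KI library reached the lowest WT library, and WT libraries 4 and 5 were the lowest of WT. The means were 767 ± 114 in KI and 1462 ± 325 in WT (SD, n = 5), a log2 fold change of −0.91 (SE 0.15, adjusted p = 3.41e-04, limma). Taken alone, libraries 1 to 3 gave −1.06 and libraries 4 and 5 gave −0.70. The count of Tuba1c was 0.861 to 1.09 times that of Tuba4a in each of the 10 libraries, although no window of read length is shared by Tuba4a with another gene. Exons of Tuba4a overlap those of Stk16, those of Tuba3a overlap 4930417O13Rik and those of Tubb4b overlap Fam166a. Overlaps are also annotated for Ttll9 (Gm14199), Tuba1b (Gm41396 and Gm49450), Tuba1a (Gm49450), Tuba8 (Gm15856) and Ttll2 (Gm49630). Tubgcp3 (4931415C17Rik), Tube1 (Ccn6), Tubgcp6 (Selenoo) and Agbl1 (Gm45210) have them too, as do Tubgcp4 and Agbl5, given below. Whether strand was used in counting is not given in the sources used here.

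**Figure D2:**
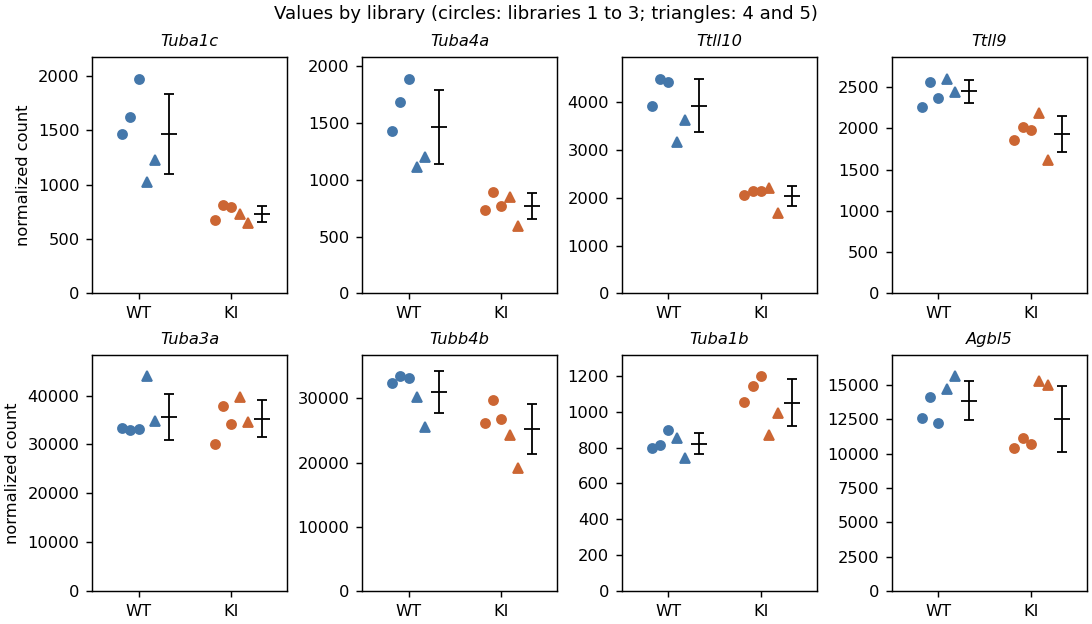
Normalized counts of 8 members in each library, with WT on the left and KI on the right of each panel, circles for libraries 1 to 3 and triangles for libraries 4 and 5, and the mean with its SD (n = 5) beside the points. Tuba1c, Tuba4a, Ttll10 and Ttll9 show no overlap between genotypes, and Tuba3a, Tubb4b, Tuba1b and Agbl5 do.

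Of the other Tuba1 genes, Tuba1b was higher by adjusted p alone and Tuba1a did not pass. Tuba1b (chr15:98931431-98934390, minus strand) measured 795, 815, 897, 854 and 744 normalized counts in WT. It measured 1053, 1143, 1198, 867 and 993 in KI. KI library 4 lay below the highest WT library, and the other KI libraries lay above all of WT. The log2 fold change was 0.35 (SE 0.10, adjusted p = 0.0197, limma), under the fold threshold. Tuba1a, known from neurons, had a log2 fold change of 0.27 (adjusted p = 0.236), with 0.56 in libraries 1 to 3 and −0.18 in libraries 4 and 5. Because reads of these genes can be exchanged, their sum was also taken. Tuba1a, Tuba1b and Tuba1c together gave 2686 to 3714 normalized counts in WT and 2251 to 3038 in KI, which overlapped. Of this sum Tuba1c held 36.7% to 53.9% in WT and 24.3% to 32.3% in KI, with no overlap. As Tuba1c was taken up because it fell, this share describes the same fall and is no separate result. How far reads were exchanged among the 3 genes was not tested.

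Tuba3a and Tuba3b, the alpha-tubulins known from testis, made up most of the alpha-tubulin RNA. Together they held 88.4% to 93.8% of the alpha-tubulin normalized counts of a library. Tuba3a (chr6:125278270-125286081, minus strand) measured 33294, 33040, 33247, 43966 and 34853.5 normalized counts in WT, and 29996, 37827, 34256, 39772 and 34633 in KI. Both genotypes spanned much the same values, and WT library 4 was the highest of the 10. Its log2 fold change was −0.01 (95% confidence interval −0.27 to 0.24, adjusted p = 0.955, limma). For Tuba3b it was 0.06 (−0.18 to 0.30, adjusted p = 0.758), and for both genes counted as 1 it was 0.02 (−0.24 to 0.29, adjusted p = 0.925). These intervals lie within a fold change of 1.5. Tuba3a over Tuba3b was 0.945 to 1.12 in the 10 libraries. The sum of all alpha-tubulins was 65706 to 84923 normalized counts in KI and 73011 to 89664 in WT, and the KI mean was 99.7% of the WT mean. Tuba8, an alpha-tubulin of testis and muscle, had a log2 fold change of −0.20 (adjusted p = 0.301), and Tubal3 0.18 (adjusted p = 0.725).

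Tubb4b, a beta-tubulin of cilia and sperm tails, was the main beta-tubulin, with 92.5% to 95.8% of the beta-tubulin normalized counts of a library. It lies at chr2:25222158-25224702 on the minus strand. It measured 32319, 33452, 33113, 30180 and 25575 normalized counts in WT, and 26156, 29778, 26819, 24300 and 19076 in KI. The KI values were low in library 5 and high in library 2, and 3 of them lay above the lowest WT library. The log2 fold change was −0.30 (SE 0.13, adjusted p = 0.112, limma), with the library number as a block the adjusted p was 0.0233, and under a scaling to library totals the log2 fold change was −0.07. The other beta-tubulins had log2 fold changes above 0. Tubb3, known as the neuronal form, had 0.45 (adjusted p = 0.0805, and 0.0167 with the block), Tubb5, the form of many dividing cells, 0.31 (0.136, and 0.0471 with the block), Tubb6 0.14 (0.553) and Tubb2a 0.10 (0.691). The interval of Tubb3 ran from 0.08 to 0.83 and of Tubb5 from 0.01 to 0.61, so that a fold change of 1.5 lay inside both. The share of Tubb4b among the beta-tubulin counts was 93.9% to 95.8% in WT and 92.5% to 93.7% in KI, with no overlap.

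Gamma-tubulin 1 (Tubg1, the nucleating tubulin, chr11:101120117-101126423, plus strand) measured 320, 328, 347, 236 and 302 normalized counts in WT, and 255, 236, 262, 231 and 218 in KI. WT library 4 lay among the KI values and the other WT libraries above them. Its log2 fold change was −0.34 (SE 0.12, adjusted p = 0.0479, limma), close to the threshold. Leaving out any 1 library other than WT library 4 took the adjusted p to between 0.0563 and 0.117. Among its complex proteins, which cap and hold gamma-tubulin, Tubgcp4 measured 486, 541, 475, 476 and 555 in WT and 399, 345, 363, 426 and 437 in KI. No KI library reached the lowest WT library. Its log2 fold change was −0.36 (SE 0.10, adjusted p = 0.0144). Exons of Tubgcp4 overlap those of Trp53bp1. Tubgcp2 (chr7:139995955-140036674, minus strand), the complex protein with the highest level, measured 1636, 1754, 1637, 1871 and 1700 in WT and 1691, 1787, 1717, 2070 and 2116 in KI. The groups overlapped, with a log2 fold change of 0.12 (adjusted p = 0.379). Tubgcp3, Tubgcp5 and Tubgcp6 lay between −0.08 and 0.02.

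Delta-tubulin (Tubd1, chr11:86544991-86567360, plus strand) measured 657, 816, 697, 793 and 658 normalized counts in WT and 708, 720, 677, 746 and 731 in KI. All KI values lay within the range of WT, with a log2 fold change of −0.01 (95% confidence interval −0.20 to 0.18, adjusted p = 0.955). Epsilon-tubulin (Tube1) averaged 60.2 ± 10.1 in KI and 74.7 ± 5.30 in WT (SD, n = 5), a log2 fold change of −0.32 (adjusted p = 0.150).

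Among the Ttll enzymes, Ttll10 fell most. Ttll10 extends glycine chains that Ttll3 and Ttll8 start (chr4:156034835-156050817, minus strand). It measured 3912, 4494, 4429, 3171 and 3636 normalized counts in WT. It measured 2051, 2144, 2139, 2194 and 1687 in KI. KI libraries 1 to 4 lay close together, library 5 lay below them, and all lay below WT. The means were 2043 ± 206 in KI and 3928 ± 555 in WT (SD, n = 5), a log2 fold change of −0.94 (SE 0.11, adjusted p = 2.22e-05, limma). Taken alone, libraries 1 to 3 gave −1.02 and libraries 4 and 5 gave −0.82. Markers of elongating spermatids were lower in KI beside Ttll10, Tuba1c and Tuba4a, by the sums given above, and their part in these falls was not tested. No window of read length is shared by Ttll10 with another gene.

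Of the initiating glycylases, Ttll8 was lower by adjusted p alone and Ttll3 did not pass. Ttll8 measured 1731, 1837, 1777, 1818 and 2299 normalized counts in WT and 1190, 1225, 1272, 1768 and 1737 in KI. KI libraries 4 and 5 reached the WT range and libraries 1 to 3 did not. The log2 fold change was −0.41 (SE 0.13, adjusted p = 0.0316, limma), with −0.54 in libraries 1 to 3 and −0.22 in libraries 4 and 5. Ttll3 had a log2 fold change of −0.26 (adjusted p = 0.241, and 0.0361 with the library number as a block). Summed over these 3 glycylases, the normalized count was 3891 to 4929 in KI and 6187 to 7203 in WT. The grouping by activity was made with these values known and carries no test.

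The glutamylases, a group of 8 here, had 0 members past both thresholds in limma, edgeR and DESeq2. At an unadjusted p under 0.05 in limma there were 3 of them, against 5322 of all 15389 genes. The log2 fold changes of the glutamylases ranged from −0.35 to 0.35 with a median of −0.04. Their summed normalized count was 18778 to 25517 in KI and 20869 to 24668 in WT. Ttll9, a glutamylase of sperm flagella, measured 2262, 2561, 2361, 2602 and 2442 in WT and 1861, 2014, 1983, 2186 and 1611 in KI. KI library 4, the highest of KI, lay just below WT library 1, the lowest of WT. The log2 fold change was −0.35 (SE 0.09, adjusted p = 0.0138, limma). Ttll13 (chr7:80246376-80260821, plus strand), with the highest level of the family, measured 6301, 7004, 6705, 6814 and 7373 in WT and 5510, 5749, 5735, 7588 and 6367 in KI. KI library 4 was the highest of all 10, and the log2 fold change was −0.15 (adjusted p = 0.312).

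Ttll1, the catalytic part of a glutamylase complex, was the glutamylase with the highest log2 fold change, 0.35 (SE 0.13, adjusted p = 0.0684, limma, and 0.0162 with the library number as a block). It measured 539, 613, 522, 601 and 553 in WT and 593, 664, 604, 986 and 836 in KI. KI libraries 2, 4 and 5 lay above all WT libraries, and libraries 1 and 3 of KI lay within the WT range. Within libraries 1 to 3 its log2 fold change was 0.16 and within libraries 4 and 5 it was 0.65. Ttll6 had −0.23 (adjusted p = 0.130, and 0.0439 with the block), Ttll11 −0.04 (0.857), Ttll5 −0.04 (0.887), Ttll7 −0.01 (0.975) and Ttll4 0.01 (0.977). Outside these groups Ttll2 had −0.03 (0.918) and Ttll12 0.09 (0.738).

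The carboxypeptidases that shorten glutamate chains had 0 of 5 members past both thresholds in limma, edgeR and DESeq2 and 0 past the adjusted p of limma. At an unadjusted p under 0.05 in limma there was 1, Agbl4, against 5322 of all 15389 genes. With the library number as a block, Agbl4 passed the adjusted p (0.0353). Agbl5, the form that removes branching glutamates (chr5:30888852-30906666, plus strand), measured 12586, 14110, 12224, 14702 and 15642 normalized counts in WT and 10439, 11146, 10682, 15315 and 15009 in KI. KI libraries 1 to 3 lay below all of WT, and KI libraries 4 and 5 lay within the upper part of the WT range. Its log2 fold change was −0.16 (SE 0.13, adjusted p = 0.421), with −0.27 in libraries 1 to 3 and −0.00036 in libraries 4 and 5. Agbl4 had −0.22 (adjusted p = 0.0979), Agbl3 −0.12 (0.314), Agbl2 −0.01 (0.974) and Agbl1 0.35 (0.573). Agbl1 averaged 13.9 ± 6.26 normalized counts in WT and 18.2 ± 8.22 in KI (SD, n = 5), the lowest level per kb of the members, and its interval ran from −0.47 to 1.16. Exons of Agbl5 overlap those of Ost4.

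Of the 31 members whose adjusted p was 0.05 or more, 24 had a 95% confidence interval wholly within a fold change of 1.5. The other 7 were Agbl1, Ttll1, Tuba1a, Tubal3, Tubb3, Tubb5 and Tube1, whose intervals reach beyond that size.

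Levels of the genes were set side by side as normalized count per kb of transcript. Tuba3a came first with 23645 ± 3107 per kb in WT (SD, n = 5), and its lowest WT library lay above the highest of Tubb4b, with 19354 ± 2035. Tubb4b and Tuba3b, with 19173 ± 1669, overlapped. Agbl5 followed with 4330 ± 449, then Ttll13 with 2272 ± 131, Ttll9 with 1576 ± 90.4, Ttll10 with 1537 ± 217 and Tuba8 with 1216 ± 104. From Ttll9 on down, each member overlapped the next in its WT libraries, except where Tubb2a led Tubgcp5, Ttll12 led Tube1 and Tubgcp6 led Tubal3. In KI the level of Ttll10 per kb was 799 ± 80.4, that of Tuba1c 369 ± 36.8 against 739 ± 185 in WT, and that of Tuba4a 270 ± 40.1 against 515 ± 114 in WT. The members thus spanned a wide range, and Tuba1c and Tuba4a stood far below Tuba3a in both genotypes. The lengths are those of 1 transcript for each gene, and other transcripts would change the order of close neighbours.

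**Figure D3:**
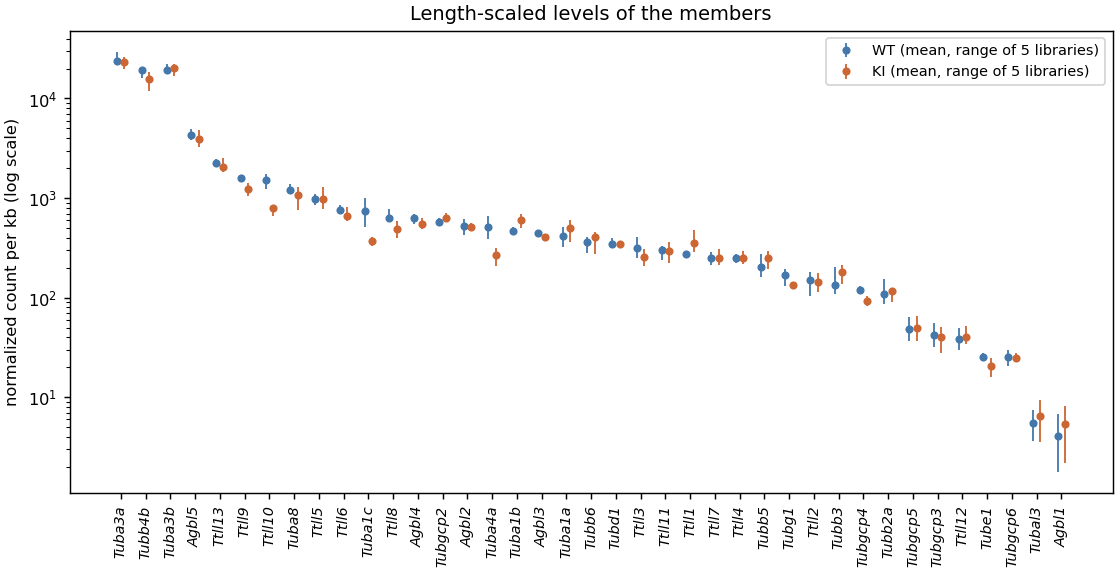
Mean normalized count per kb of transcript of each member in WT and KI on a log axis, with bars from the lowest to the highest of 5 libraries, ordered by the WT mean. Tuba3a, Tubb4b and Tuba3b stand above all other members in both genotypes, and the bars of WT and KI are apart for Ttll9, Ttll10, Tuba1c, Tuba4a and Tubgcp4.

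Libraries 4 and 5 of both genotypes have another read quality than libraries 1 to 3 in the study's sequencing summary, and each comparison was repeated within both sets. The log2 fold change had the same sign in both sets for 25 of 39 members and opposite signs for 14. This count is not given over all genes, so that it has no background here. A limma interaction of genotype with the library set had 0 members at an adjusted p under 0.05, where 0.247% of all genes passed. At an unadjusted p under 0.05 it had 6 members. The share of all genes at that unadjusted p is not given, so that the 6 have no background here. The lowest adjusted p among members was 0.103, for Tuba1a. Without WT library 5, Tuba1a passed (interaction −0.92 on the log2 scale, adjusted p = 0.0456). Summed markers of several cell types moved with the library set too. Those of elongating spermatids averaged 458156 normalized counts in libraries 1 to 3 and 297956 in libraries 4 and 5 of WT. In the same order, those of round spermatids averaged 18855 and 17257, of spermatocytes 14654 and 11226, and of Sertoli cells 9198 and 10881. Their part in the levels of the members was not tested.

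**Figure D4:**
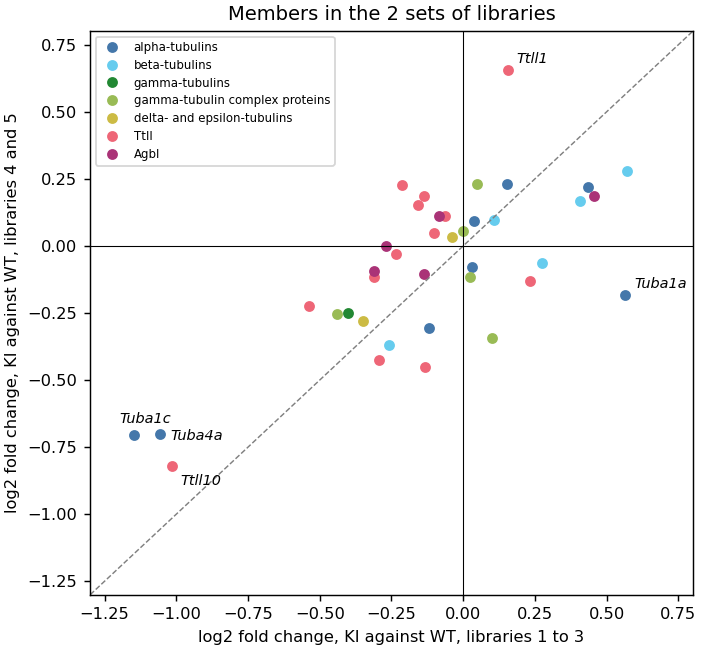
Log2 fold change of KI against WT of each member in libraries 1 to 3 on the horizontal axis and in libraries 4 and 5 on the vertical axis, coloured by family, with the line of equal values dashed. Ttll10, Tuba1c and Tuba4a lie in the lower left corner in both sets, and Tuba1a and Ttll1 lie far from the line.

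The upstream sequences of Tuba1c and Ttll10 are given because both genes fell. Each line holds the 250 bases before the RefSeq gene start (GRCm38.p6), 5′ to 3′ on the strand of the gene. Capitals mark matches to GTTGCC or GGCAAC, the X-box half-site read on either strand, and to TGACG or CGTCA, the CRE half-site read on either strand, which do not overlap here. The window of Ttll10 lies within an intron of a longer annotated transcript of that gene. The window of Tuba4a, which also fell, overlaps an annotated untranslated region and is not shown. It held 1 match to the CRE half-site and 0 to the X-box half-site.
Tuba1c, chr15:99029641-99029890, plus strand: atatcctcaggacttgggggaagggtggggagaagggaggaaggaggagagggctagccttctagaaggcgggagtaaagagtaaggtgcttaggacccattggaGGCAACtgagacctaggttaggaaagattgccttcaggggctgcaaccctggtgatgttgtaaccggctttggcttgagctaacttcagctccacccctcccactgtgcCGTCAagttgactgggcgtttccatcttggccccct
Ttll10, chr4:156050818-156051067, minus strand: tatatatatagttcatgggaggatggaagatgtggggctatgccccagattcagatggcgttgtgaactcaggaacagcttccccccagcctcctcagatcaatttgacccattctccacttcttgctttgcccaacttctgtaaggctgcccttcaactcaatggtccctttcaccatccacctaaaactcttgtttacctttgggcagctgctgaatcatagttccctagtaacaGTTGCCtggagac

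The X-box half-site, known from promoters of cilium genes, occurred in windows of 9 of 34 member genes with a window. By window this was 9 of 39 member windows, beside 10.4% of all 32851 windows. The genes were Agbl2, Agbl3, Ttll10, Ttll3, Ttll5, Ttll8, Ttll9, Tuba1c and Tuba8. The CRE half-site, known from promoters of round spermatids, occurred in 8 of 34 genes, Ttll5, Ttll9, Tuba1c, Tuba4a, Tubb2a, Tubb4b, Tube1 and Tubgcp6. By window this was 8 of 39 member windows, beside 17.8% of all windows. Some genes have more than 1 window, and 5 members have none. A match describes letters only.

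Other genes that fold tubulin, mark it or bind microtubules were taken from lists written from general knowledge, 69 genes of which 62 were tested. Of these, 2 fell (3.23%) and 4 rose (6.45%) past both thresholds, against 8.22% and 6.13% of all genes. By adjusted p alone 6 were lower and 5 higher (17.7%, against 22.9% of all genes), with a median log2 fold change of −0.08. Tppp2, a tubulin polymerization-promoting protein of sperm, measured 4233, 4371, 4573, 2751 and 1951 normalized counts in WT and 598, 689, 665, 278 and 201 in KI. Libraries 4 and 5 were lowest in both genotypes, with no overlap between genotypes. Its log2 fold change was −2.97 (SE 0.33, adjusted p = 1.17e-05, limma). Tpgs2, a subunit of the Ttll1 glutamylase complex, measured 3770, 3996, 4036, 2876 and 3215 in WT and 2163, 2292, 2306, 2287 and 1766 in KI. There was no overlap, and the log2 fold change was −0.72 (SE 0.11, adjusted p = 2.87e-04). Of its other subunits, Tpgs1 had 0.28 (adjusted p = 0.264), Lrrc49 0.08 (0.672) and Nicn1 0.12 (0.474).

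The genes that rose were Tppp3, a relative of Tppp2, with a log2 fold change of 1.51 (adjusted p = 8.56e-06), Map1a, a microtubule-associated protein best known from neurons, with 1.08 (2.04e-04), Vash1, a detyrosinating carboxypeptidase, with 0.63 (0.00257), and Map6, which stabilizes microtubules, with 0.63 (0.00550). Tppp3 measured 144, 138, 141, 147 and 120 normalized counts in WT and 419, 534, 449, 368 and 257 in KI. Map1a measured 176, 186, 158, 182 and 198 in WT and 347, 309, 288, 454 and 564 in KI. Neither overlapped between genotypes. Svbp, the partner of Vash1, was lower by adjusted p alone with −0.40 (0.0102), as were Pcnt of the pericentriolar material with −0.51 (0.00143), the severing protein Katnal1 with −0.30 (0.0171) and the testis chaperonin subunit Cct6b with −0.35 (0.0114). The cofactor Tbcd was higher with 0.50 (8.38e-04). Of 22 folding genes, 0 passed both thresholds, by adjusted p 1 was lower and 1 higher, and 7 had an unadjusted p under 0.05. Beside these genes, 4 of 7 Leydig cell markers, 4 of 8 macrophage markers and 2 of 5 endothelial markers were past both thresholds above WT. The summed endothelial markers were 424 to 805 normalized counts in KI and 265 to 365 in WT. Their part in these rises was not tested.

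**Figure D5:**
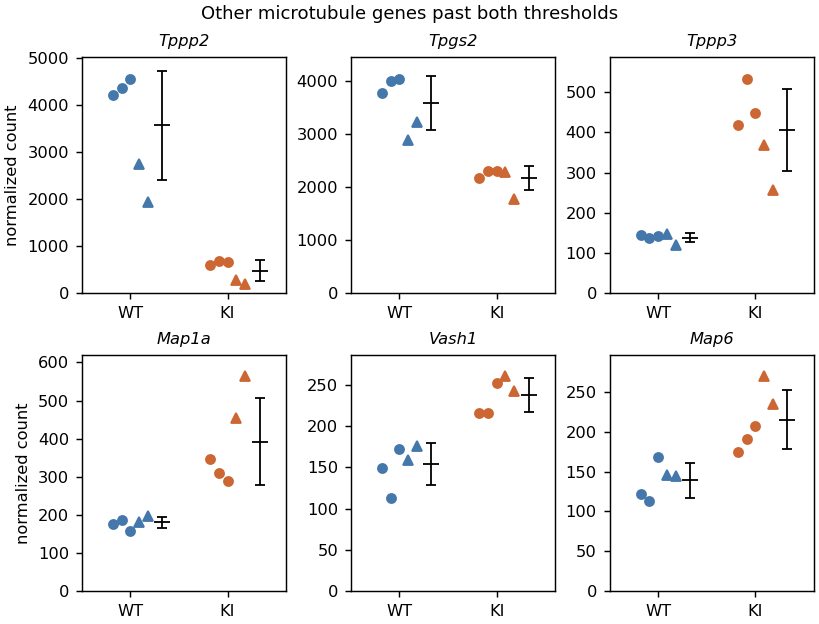
Normalized counts in each library of the 6 other microtubule genes past both thresholds, WT left and KI right, circles for libraries 1 to 3 and triangles for libraries 4 and 5, with the mean and SD (n = 5). Tppp2 and Tpgs2 lie lower in all KI libraries, and Tppp3, Map1a, Vash1 and Map6 lie higher.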

How the data were processed

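Germ cell RNA of 5 WT and 5 KI mice was sequenced after poly(A) selection as paired-end reads of 150 bases. After adapter trimming the authors mapped the reads to mm10 (STAR), quantified genes of RefSeq_v91 by Partek E/M, and deposited normalized counts, a signal in which each count is divided by the DESeq2 size factor of its library. Whole reads were recovered from the deposited signal for 100% of values under 5000 reads, within 0.05 of a read. All columns were assigned to libraries (columns not assigned, 0). Gene ends are the deposited stop minus 1, since that equalled the RefSeq end for 9614 of 15328 genes and the stop itself for 646.

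Log2(normalized count + 1) was tested with limma (version 3.58.1, R 4.3.3) with a variance trend on genes passing filterByExpr of edgeR (version 4.0.16), with Benjamini-Hochberg adjustment across every tested gene. Quasi-likelihood tests of edgeR and DESeq2 (version 1.42.0) on recovered reads, other scalings, filters, pseudocounts of 0.1 and 10, a replicate block, a term for libraries 1 to 3 against 4 and 5, and leaving out each library were alternatives. The merged Tuba3a and Tuba3b was added after seeing the data. Libraries of the same number deviated together from their genotype means (r of 0.306, 0.105, 0.280, 0.216 and 0.462 for numbers 1 to 5). The number was therefore taken as pairing them in the block fit, which comes from the data, not from the design. KI library 2 correlated more with another WT library than with number 2, and WT library 3 more with another KI library than with number 3. Pairing by number was not told apart from the sets 1 to 3 and 4 and 5. Adjusted p values with the block rest on this pairing. Pairs of replicates differed by a chi-square of 2.67 (KI libraries 2 and 3) to 46.4 (KI libraries 2 and 5) for each degree of freedom. This is more than counting error alone, so that none was a copy of another. It cannot tell a second library of the same mouse from one of another mouse. Values were described in every library for members past both thresholds and for the member with the highest length-scaled level of each family; from the other lists, genes past both thresholds were named. The glycylase and glutamylase groups were formed, and further members were named for their adjusted p or library pattern after their values were seen. The members and lists were chosen with earlier results of these data known. Each mouse gave 1 library. The fits were tested on simulated data. Coding ends of some alpha-tubulins are not reported here.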

Additional observations from a re-analysis of the deposited data

Results flagged for a closer look

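In 8 of 78 groups of 5 libraries a member had 1 library far from the others, a gap over 0.71 of the range of the group, where chance gives about 1 in 20. Ttll10 was low in KI library 5 (1687 normalized counts, next 2051), Ttll11 low in WT library 1 (751, next 967) and Ttll8 high in WT library 5 (2299, next 1837). Tuba3a and Tuba3b were both high in WT library 4 (43966 and 39302, next 34853.5 and 33088). Tubb2a was low in KI library 5 (146, next 188), Tubb3 high in WT library 3 (376, next 229) and Tubgcp6 high in KI library 5 (213, next 184).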

How the results depend on the processing

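Tuba1c, Tuba4a and Ttll10 were past both thresholds and lower in KI in all 23 alternatives, with log2 fold changes of −1.15 to −0.71, −1.06 to −0.69 and −1.02 to −0.71. The count of members higher in KI was 0, but 1 with scaling to library totals (Tubb3) and 1 in libraries 4 and 5 alone (Ttll1), and 0 to 1 when each library was left out, with 1 (Tubb3) without WT replicate 3. With the replicate block, which pairs libraries by number, 3 members were lower and 0 higher past both thresholds, 2 other microtubule genes were lower and 4 higher, as without it, and no named member lost its adjusted p. Of the other microtubule genes, 1 was lower and 6 were higher with library totals (2 and 4 as reported), and 2 to 4 were higher when each library was left out, with 2 without WT replicate 2. Members with an interaction numbered 0 to 1 when each library was left out. With library totals the log2 ratios of the summed families were 0.091 for Agbl, 0.22 for alpha-, −0.024 for beta-, 0.19 for delta- and epsilon-tubulins, 0.24 for gamma-tubulin complex proteins, −0.11 for gamma-tubulin and 0.021 for Ttll. On the authors' normalized counts they were −0.13, −0.0047, −0.26, −0.041, 0.017, −0.35 and −0.20, in the same order. The sign thus changed for Agbl, for alpha-tubulins, for delta- and epsilon-tubulins and for Ttll. By adjusted p alone, Ttll8, Ttll9, Tubgcp4 and Tubg1 were lost with library totals (log2 fold changes −0.18, −0.12, −0.14 and −0.11), and these and Tuba1b in libraries 4 and 5 alone. Tuba1b was lost without KI replicate 2 or 3, and Ttll8 without any of WT replicates 2 and 5 and KI replicates 1 to 3. The causes were not tested.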
